A study of Bos grunniens with 36 samples.

Results

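The genes described here are those for the proteins of the cytosolic ribosome, taken from the authors' deposited table by their array name. Every gene named RPL or RPS with a number was taken, and a letter A, X or L and further digits could follow. Names with other endings, such as RPL36AL, RPS4Y1 and RPS6KB1, were left out. RPLP0, RPLP1, RPLP2 and RPSA were taken as well. There were 82 such genes of 20110 gene names in the table, namely 42 of the large subunit, 31 of the small subunit, the 3 stalk proteins and 6 paralogues of members (RPL3L, RPL7L1, RPL10L, RPL22L1, RPL26L1 and RPS27L). Where a gene had several probes, the one with the highest mean over all arrays was used. The samples were biopsies of the mammary gland of 4 female yaks (Bos grunniens), cleaned of fat and connective tissue and taken 30 and 15 days before calving (days -30 and -15) and at days +1, +15, +30, +60, +120, +180 and +240 after it, with no treatment. Each animal gave 1 array at each of the 9 days, so that there were 36 arrays, and the left and right rear gland were sampled in turn, a side that is not recorded by array. RNA was hybridised to a cattle array, a design made for Bos taurus, in 1 colour.

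The ribosome builds all proteins of the cell from a small subunit, which reads the message, and a large subunit, which joins the amino acids. Its proteins are made in matched amounts, and their messages share a short pyrimidine tract at the 5′ end through which the mTOR pathway controls their translation. In the mammary gland, lactation brings a large synthesis of a few secreted proteins, the caseins and whey proteins. Several of the paralogues are known for a restricted use: in mouse and human, RPL3L replaces RPL3 in heart and skeletal muscle, RPL10L replaces RPL10 in the testis, and RPL22L1 stands in for RPL22.

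2 pairs of probes are printed because the results turn on how members of a pair move against each other. The probes of RPL22 and its paralogue RPL22L1 lie on matching coding stretches, and the probes of RPLP1 and RPLP2 cover the tail that both stalk proteins share. Capitals mark the bases at which the 2 probes of a pair differ. All are printed 5′ to 3′ as the array design gives them, with the design's positions on the cattle build UMD 3.1.
RPL22, chr16:47999896-47999955, plus strand: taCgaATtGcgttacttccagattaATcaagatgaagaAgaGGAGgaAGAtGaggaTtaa
RPL22L1, chr5:32529777-32529836, plus strand: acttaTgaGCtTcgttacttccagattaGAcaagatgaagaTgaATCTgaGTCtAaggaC
RPLP1, chr10:16326417-16326453, plus strand: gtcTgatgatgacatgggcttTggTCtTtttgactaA
RPLP2, chr29:50768690-50768726, minus strand: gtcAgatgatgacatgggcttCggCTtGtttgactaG
Shifted by 3 bases against each other, the probes of RPL22 and RPL22L1 are identical at 41 of 57 aligned bases. Of the 60 bases of each stalk probe the first 37 are shown, which end at a stop codon in both, and 31 of these 37 are identical. The design places all 4 probes of RPL22L1 on chromosome 5, and whether that locus is the gene or a copy of it was not tested, which bears on each value given for RPL22L1 and its pair. How far the paired transcripts hybridise to each other's probe was not tested.

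81 of the 82 genes were well above background on all 36 arrays, and no spot was saturated on any array. RPL3L was well above background on 27 of 36. Values are log2 signals less the 75th percentile of the array, the scale of the authors' deposited table. That percentile ran from 1029 to 6450 intensity units. It lay between 4853 and 5752 on the 8 arrays of pregnancy (days -30 and -15) and at a median of 1887 over the 24 arrays from day +15 to day +240, which are called lactation here. The order of samples in the table and in the scanner files also differs. Each of the 36 columns equals a scanner file deposited under another sample, with the same day in 9 cases and another day in 27. The animal was the same in 0 of the 36. Days and animals are those of the table here. The animal block, the values per yak and the fits without 1 yak rest on that record. In that record the 4 arrays of a slide hold 1 day, so that slide and day cannot be told apart.

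Across the family, signal on the deposited scale was higher in lactation than in pregnancy, and this direction rested on the scaling. The median of the 82 genes was 4.96, 5.03, 4.80 and 4.49 in yaks 1 to 4 at day -30 and 4.74, 4.62, 4.71 and 4.73 at day -15. At day +1 it was 4.96, 4.44, 4.85 and 5.39. It was 5.63, 5.53, 5.61 and 6.28 at day +15, and 5.17, 4.49, 4.18 and 5.70 at day +30. All 4 arrays of day +15 lay above the 8 arrays of pregnancy, while those of day +30 spread from below all of them to above all of them. At day +60 the median was 5.49, 5.95, 5.92 and 5.68, at day +120 5.52, 6.08, 5.11 and 4.26, at day +180 5.33, 5.71, 5.89 and 4.74, and at day +240 5.40, 5.90, 6.09 and 5.77. Days +60 and +240 again lay wholly above pregnancy, and yak 4 was the low array at days +120 and +180.

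**Figure D1:**
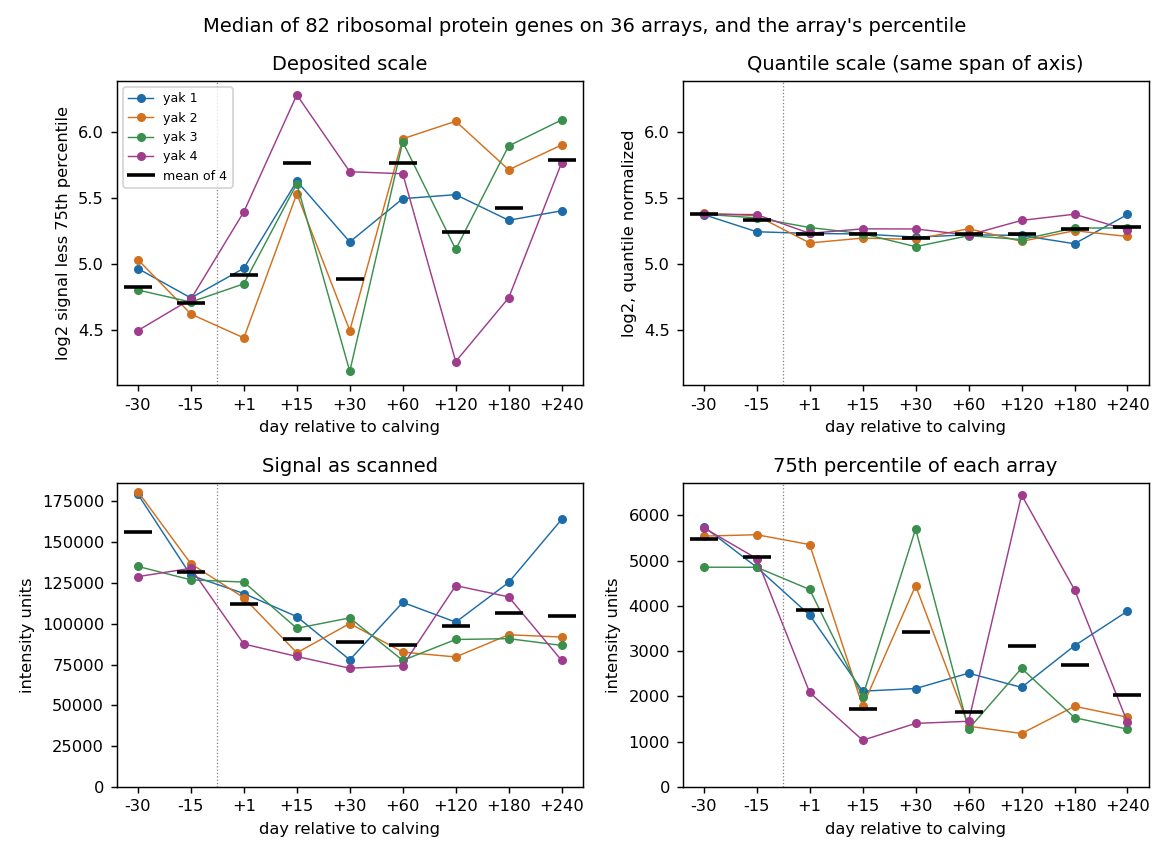
Median of the 82 genes on each of the 36 arrays, by day relative to calving, on the deposited log2 scale, after quantile normalization (both in log2 units) and as scanned (intensity units), with the 75th percentile of each array; points are yaks 1 to 4 and bars the means of 4. The deposited values rise where the percentile is low, the signal as scanned is lower in lactation (median 91370) than in pregnancy (median 134600), and the quantile values stay within 5.13 and 5.38.

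As scanned, the median signal of the family ran from 126900 to 181100 intensity units over the 8 pregnancy arrays and from 72700 to 164100 over the 24 lactation arrays. It was thus lower in most of lactation, while the percentile that each array is divided by fell further. The 2 arrays with the highest family median, yak 4 at day +15 (6.28) and yak 3 at day +240 (6.09), had percentiles of 1029 and 1273. The 2 with the lowest, yak 3 at day +30 (4.18) and yak 4 at day +120 (4.26), had 5698 and 6450. In a mixture of cells such as a biopsy, fewer cells of a type and less RNA per cell cannot be told apart.

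In the contrast of the 6 lactation days with the 2 pregnancy days (limma on all 20110 genes with the animal as a random block, Benjamini-Hochberg adjustment, called under 0.05), 76 of 82 genes rose and 2 fell. Of all genes, 18.4% rose and 19.9% fell. The median change of the family was 0.71, against -0.03 over all genes, and that of the other 318 genes with a mean of 4 or more on this scale was 0.70, with 269 of them called higher. The family's median was thus near that of these 318 genes. Among probes with a mean of 5 or more, those of members outside the paralogues changed by a median of 0.74. Probes of other genes in that range changed by a median of 0.93. These means are taken over all arrays, lactation included, so genes and probes that rise enter the bright groups more readily. All 31 genes of the small subunit and all 3 of the stalk were called higher, as were 41 of 42 of the large subunit. RPL28, a large subunit protein, was the one that missed the threshold (0.37, SE 0.18, adjusted p = 0.102). Of the 6 paralogues, RPS27L rose and RPL3L and RPL26L1 fell.

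After quantile normalization, which gives every array the same distribution, the same contrast called 1 member higher (RPLP1) and 35 lower, where 16.8% of all genes were called higher and 18.2% lower. The median change of the family was then -0.16 and that of the other bright genes -0.01. Of the 82 genes, 70 were higher on the deposited scale and lower on the quantile scale, and 30 were called in both of these opposite directions. Scaling each array to its total signal, chosen after seeing the data, gave 36 higher and 4 lower, where 5.55% of all genes were called higher and 57.7% lower, with a median of 0.22 for the family and of -0.52 for all genes. 9 of the 82 had one direction under all 5 scalings tried (the deposited one, centring on the array median, quantile, normexp with quantile, and total signal): RPLP1, RPS12, RPS27, RPL5, RPL27A and RPL37A higher, RPL3L, RPL26L1 and RPL22L1 lower. On the quantile scale RPL5 (0.01), RPL27A (0.0003) and RPL37A (0.007) lay near 0 (adjusted p 0.918 to 0.998, limma), so their direction there is not established. Of the 9, RPLP1, RPL3L and RPL26L1 were also called under each of the 5 scalings. With array brightness as a covariate RPL3L kept its call (-1.45, adjusted p = 5.12e-05, limma), while RPLP1 (-0.05, adjusted p = 0.759) and RPL26L1 (-0.23, adjusted p = 0.236) lost theirs.

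**Figure D2:**
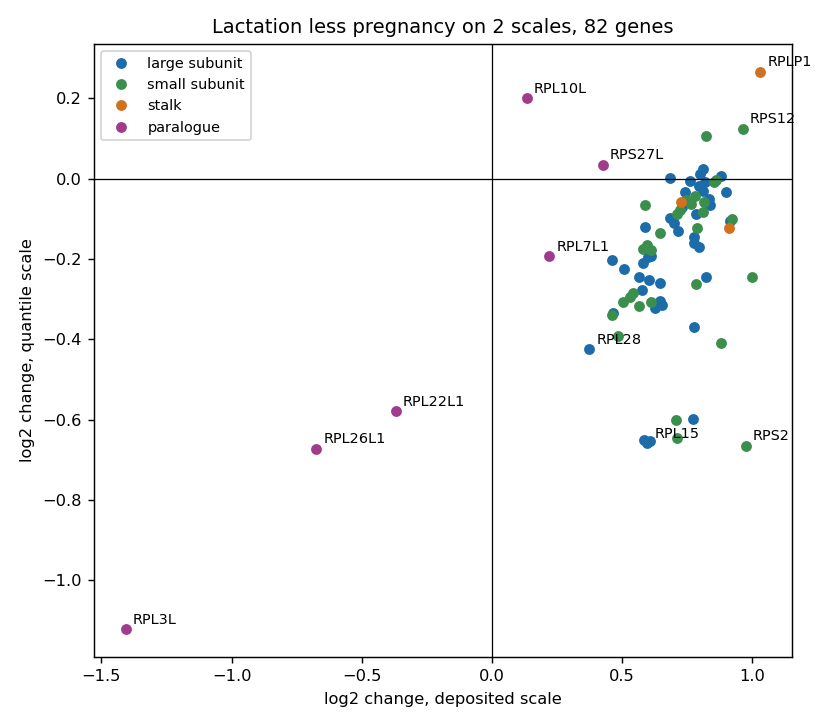
Log2 change from pregnancy to lactation of each of the 82 genes on the deposited scale (horizontal) and after quantile normalization (vertical); colours give the subunit, the stalk and the paralogues. Most genes lie to the right of 0 and below 0, so that their direction flips between the scales, while RPL3L, RPL26L1 and RPL22L1 are lower and RPLP1 is higher on both.

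The stalk is the arm of the large subunit that recruits the elongation factors, with RPLP0 at its base and pairs of RPLP1 and RPLP2 on it. RPLP1 had the largest rise of the family on the deposited scale. Its values were 4.48, 4.45, 4.37 and 4.08 in yaks 1 to 4 at day -30 and 4.45, 4.29, 4.38 and 4.31 at day -15. They were 4.68, 4.24, 4.56 and 5.24 at day +1, 5.38, 5.41, 5.32 and 6.21 at day +15, and 5.15, 4.26, 3.87 and 5.58 at day +30. The pregnancy arrays lay within 4.08 and 4.48, and all of day +15 lay above them. Later values were 5.32, 5.85, 6.04 and 5.67 at day +60, 5.36, 6.20, 5.08 and 3.98 at day +120, 5.23, 5.91, 6.04 and 4.44 at day +180, and 5.15, 6.03, 6.13 and 5.51 at day +240. Of the 24 lactation arrays 20 were above every pregnancy array. Its rise was 1.03 (SE 0.22, adjusted p = 5.13e-04, limma), with 0.27 on the quantile scale (adjusted p = 0.00408) and 0.54 on the total signal scale (adjusted p = 8.61e-04), but -0.05 with array brightness as a covariate. Its 3 probes changed by 0.83 to 1.06 on the deposited scale.

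RPLP0 rose by 0.91 on the deposited scale (SE 0.23, adjusted p = 0.00219, limma) and had -0.12 on the quantile scale (adjusted p = 0.149). Its pregnancy values ran from 4.67 through a median of 5.005 to 5.38, and its lactation values from 4.40 through 6.04 to 6.99. RPLP2, whose probe shares most of the printed tail with RPLP1, rose by 0.73 on the deposited scale (SE 0.19, adjusted p = 0.00287) and had -0.06 on the quantile scale (adjusted p = 0.548). It ran from 4.29 through 4.59 to 4.96 in pregnancy and from 3.83 through 5.43 to 6.11 in lactation. The ranges of both genes overlapped between the periods, with 20 of 24 lactation arrays above all of pregnancy in each.

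In the small subunit, RPS2, RPS12 and RPS24 were among the genes with the largest rises on the deposited scale. RPS12 ran from 4.34 through 4.73 to 4.77 in pregnancy and from 4.26 through 5.81 to 6.66 in lactation, with 21 of 24 lactation arrays above all pregnancy arrays. Its rise of 0.96 (adjusted p = 4.37e-04, limma) was 0.12 on the quantile scale (adjusted p = 0.141). The other probes of RPS12 changed by 0.63 and 0.34 on the deposited scale. RPS2, a protein at the entry of the mRNA channel, ran from 4.998 through 5.41 to 6.06 and from 4.79 through 6.69 to 7.46. It rose by 0.98 on the deposited scale (adjusted p = 9.27e-04) and had -0.66 on the quantile scale (adjusted p = 9.27e-05), the widest disagreement of the family. RPS24 rose by 0.92 (adjusted p = 8.75e-04) and had -0.10 on the quantile scale.

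Other small subunit proteins with a role of their own moved with the rest on the deposited scale. Their changes on the quantile scale were small and below 0. RPS6, the substrate of the S6 kinases, ran from 4.66 through 4.79 to 5.31 in pregnancy and from 4.30 through 5.78 to 6.41 in lactation, with changes of 0.79 on the deposited and -0.12 on the quantile scale. RPSA, also known as the laminin receptor, ran from 4.29 through 4.69 to 4.89 and from 4.06 through 5.39 to 6.10, with 0.64 and -0.14. RPS3, which also acts in DNA repair, ran from 4.44 through 4.68 to 5.03 and from 4.04 through 5.68 to 6.31, with 0.78 and -0.04. RPS27A, which is made as a fusion with ubiquitin, ran from 4.44 through 4.64 to 4.87 and from 4.03 through 5.55 to 6.29, with 0.71 and -0.09. On the deposited scale each of the 4 was called higher (adjusted p 0.00186 to 0.00753), and on the quantile scale each missed the threshold (adjusted p 0.0986 to 0.607).

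Among the chosen probes of the large subunit, RPL7 had the largest rise on the deposited scale (0.92, SE 0.20, adjusted p = 6.33e-04, limma), with -0.11 on the quantile scale (adjusted p = 0.467). Its other probes changed by -0.07 to 0.79 on the deposited scale, and the other probes of RPL10 by 0.75 to 1.03. RPL7 ran from 4.70 through 4.84 to 5.66 in pregnancy and from 4.45 through 6.06 to 6.79 in lactation. RPL5 and RPL11 form the 5S particle that binds MDM2 when ribosome assembly fails. RPL5 ran from 4.41 through 4.58 to 5.03 and from 4.19 through 5.57 to 6.41, with changes of 0.80 on the deposited and 0.01 on the quantile scale. RPL11 ran from 4.41 through 4.66 to 4.92 and from 4.06 through 5.48 to 6.26, with 0.73 and -0.07. RPL10, which joins the large subunit late in its assembly, ran from 4.88 through 5.25 to 5.82 and from 4.54 through 6.21 to 6.98, with 0.77 and -0.60. RPL3, at the peptidyl transferase centre, ran from 4.58 through 4.87 to 4.998 and from 4.32 through 5.43 to 6.02, with 0.58 and -0.28. On the quantile scale RPL10 (adjusted p = 8.51e-06) and RPL3 (adjusted p = 0.00500) were called lower, and RPL5 and RPL11 missed the threshold.

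RPL37 ran from 4.72 through 4.95 to 5.30 in pregnancy and from 4.38 through 5.94 to 6.49 in lactation, a rise of 0.80 on the deposited scale with -0.17 on the quantile scale. RPL28 ran from 4.41 through 4.68 to 5.10 and from 3.81 through 5.24 to 5.84, with -0.42 on the quantile scale, where it was called lower (adjusted p = 2.82e-05). RPL36 ran from 4.39 through 4.71 to 5.14 and from 4.02 through 5.36 to 5.80, with 0.47 on the deposited and -0.33 on the quantile scale. All 76 genes outside the paralogues had a positive change on the deposited scale, from 0.37 in RPL28 to 1.03 in RPLP1. The 7 of them that fell by more than 0.5 on the quantile scale were RPL8, RPL10, RPL15, RPL34, RPS2, RPS20 and RPS29. Their mean values lay between 5.63 and 6.14 on the deposited scale, and those of the other 69 between 4.25 and 5.88.

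With each array centred on the median of the family, a scaling chosen after seeing the data that shows only how members moved against one another, 3 members were called higher and 13 lower in lactation. Over all genes 2.67% were called higher and 67.9% lower on that scale. Among the 3 were RPLP1 (0.31, adjusted p = 0.00464, limma) and RPS12 (0.25, adjusted p = 0.0146). The call of RPS12 rests on its chosen probe. Its other probes changed by 0.63 and 0.34 on the deposited scale, less than the median of 0.725 for the genes outside the paralogues. All 6 paralogues were among the 13 lower ones. Among the 76 others the changes on this scale ran from -0.34 in RPL28 (adjusted p = 0.00354) to 0.31 in RPLP1, with an SD between genes of 0.14.

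The chosen probes of the paralogues changed otherwise than those of the rest, and they were dimmer. Among dim probes of the other members, the 16 below 0 changed by -1.88 to 0.60, with 5 positive. The 13 between 0 and 3 changed by -0.80 to 0.49, with 5 positive. The changes of the paralogues lay within these ranges, and the part of brightness in them was not tested. RPL3L, the muscle form of RPL3, was -4.27, -4.14, -4.31 and -4.30 in yaks 1 to 4 at day -30 and -4.45, -4.48, -4.52 and -4.22 at day -15. It was -5.58, -5.47, -5.13 and -5.14 at day +1, -5.46, -5.52, -5.25 and -4.91 at day +15, and -5.72, -5.67, -6.15 and -5.75 at day +30. Every array after calving lay below all 8 before it. At day +60 it was -6.58, -5.78, -5.90 and -6.50, at day +120 -5.17, -6.07, -5.65 and -5.80, at day +180 -6.58, -4.91, -5.62 and -5.50, and at day +240 -4.94, -6.63, -6.18 and -5.58. It fell by 1.41 in lactation on the deposited scale (SE 0.17, adjusted p = 3.34e-07, limma) and by 1.12 on the quantile scale (adjusted p = 1.34e-07), with -0.57 after normexp and quantile normalization (adjusted p = 6.83e-07), and its second probe changed by -1.03. The spot was dim: it was well above background on all 4 arrays at each day up to day +30, on 0 of 4 at day +60, on 3 at day +120 and on 2 each at days +180 and +240. Its changes at days +60 to +240, over lactation and against RPL3 thus include arrays on which the spot was not well above background. At day +60 the fall can only be set against a detection limit, which lay 2.26-fold below day -30. The measured means were -6.19 at day +60 and -4.26 at day -30. The limit takes, for each array of day +60, the lowest value among genes well above background, or the measured value where higher. It is the most lenient such limit, so the fold is not a strict bound.

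RPL26L1, the paralogue of RPL26 in the large subunit, was 0.21, 0.21, 0.33 and 0.26 in yaks 1 to 4 at day -30 and 0.01, 0.06, 0.30 and 0.29 at day -15. It was -0.08, 0.12, 0.10 and -0.48 at day +1, -0.39, -0.39, -0.28 and -0.34 at day +15, and -0.66, -0.21, 0.04 and -0.47 at day +30. At day +60 it was -0.73, -0.51, -0.68 and -0.81, at day +120 -0.04, -1.15, -0.45 and 0.03, at day +180 0.00, -0.39, -0.75 and -0.04, and at day +240 -0.21, -1.35, -0.40 and -0.99. Of the 24 lactation arrays 22 lay below all 8 of pregnancy, the exceptions being yak 3 at day +30 and yak 4 at day +120. It fell by 0.67 on the deposited scale (SE 0.13, adjusted p = 2.39e-04, limma) and by 0.67 on the quantile scale (adjusted p = 1.47e-04), but by 0.23 with array brightness as a covariate, where the call was lost. RPL26 itself ran from 4.89 through 4.99 to 5.19 in pregnancy and from 4.47 through 6.02 to 6.61 in lactation, a rise of 0.82 on the deposited scale with -0.25 on the quantile scale.

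RPL22L1 was 1.31, 1.82, 1.71 and 1.68 in yaks 1 to 4 at day -30 and 1.07, 1.34, 1.68 and 2.10 at day -15. It was 1.91, 1.68, 2.02 and 2.51 at day +1, 1.48, 2.31, 2.33 and 2.64 at day +15, and 1.07, 1.64, 1.59 and 1.90 at day +30. At day +15, 3 of 4 arrays lay above all of pregnancy. They were 0.89, 1.40, 1.16 and 1.26 at day +60, 0.20, 0.38, 0.75 and 1.52 at day +120, -0.43, 1.15, 0.83 and 0.54 at day +180, and 0.18, 1.16, 0.75 and 2.52 at day +240. Of the 24 lactation arrays 10 were below all of pregnancy, 9 of them from day +60 on, and 4 were above it. Over the whole of lactation its change was -0.37 on the deposited scale and missed the threshold (SE 0.19, adjusted p = 0.129, limma). It was called over the course of all 9 days (F test, adjusted p = 0.00261), and called lower on the quantile scale (-0.58, adjusted p = 0.0176). Its 3 other probes changed by between -0.20 and 0.00. RPL22 ran from 3.83 through 3.97 to 4.13 in pregnancy and from 3.41 through 4.63 to 5.32 in lactation and rose by 0.46 (adjusted p = 0.0193) on the deposited scale, a call lost without yak 2 or 3 (adjusted p 0.111 and 0.102), with -0.20 on the quantile scale. Its dim second probe changed by -0.91.

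RPS27L, a p53 target, ran from 2.27 through 2.36 to 2.54 in pregnancy and from 1.92 through 2.91 to 3.63 in lactation, a rise of 0.43 (adjusted p = 0.0227, limma) with 0.03 on the quantile scale. This call was lost without yak 1, 2 or 3, with adjusted p from 0.0565 to 0.104. RPS27 ran from 4.03 through 4.22 to 4.50 and from 3.70 through 5.23 to 5.85, with 0.82 on the deposited and 0.11 on the quantile scale. RPL7L1, which acts in ribosome assembly, ran from 2.48 through 2.65 to 2.73 and from 2.17 through 2.83 to 3.34, with 0.22 (adjusted p = 0.0978) on the deposited scale. On the quantile scale it was called lower (-0.19, adjusted p = 0.0319). RPL10L ran from -1.09 through -0.98 to -0.69 and from -2.58 through -0.80 to 0.77, with 0.13 (adjusted p = 0.690) on the deposited and 0.20 on the quantile scale. With array brightness as a covariate it was called lower (-0.97, adjusted p = 3.28e-05, limma). Its values at day +1, -2.48, -2.41, -1.91 and -1.11, lay below those of pregnancy. RPL39L is among the pairs looked for and has no probe in the table.

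A difference between 2 probes of 1 array is free of that array's scaling factor. Within arrays and on the chosen probes, each paralogue went down against its parent gene from pregnancy to lactation in all 4 yaks on the deposited scale. The mean change of this difference was -0.83 ± 0.19 for RPL22L1 (SD, n = 4 yaks), -0.40 ± 0.06 for RPS27L, -0.70 ± 0.09 for RPL7L1, -1.497 ± 0.25 for RPL26L1, -1.99 ± 0.11 for RPL3L and -0.64 ± 0.25 for RPL10L, the last pair chosen after its values were seen. The exact two-sided sign-flip permutation test over yaks gave 0.125 for each of the 6 pairs, the smallest p that 4 animals allow, so that none can pass 0.05. On the quantile scale the differences were -0.38, -0.07, -0.09, -0.43 and -0.84 for the first 5 in the same order, and 0.80, turned in sign, for RPL10L. After normexp and quantile normalization they were -0.47, -0.12, -0.19, -0.30 and -0.26, and 0.76 for RPL10L. The direction also rested on the choice of probe in part. With the mean of all probes of a gene, RPL22L1 changed by -0.15 and RPL22 by -0.23, so RPL22L1 fell less than its parent. RPL7L1, RPL26L1, RPL3L and RPL10L stayed below their parents there. The probes of RPS27L changed by 0.48 and 0.43, and those of RPS27 by 0.82, 0.36 and 0.01. In each pair the paralogue's probe was the dimmer one. Dim probes also had lower changes than bright ones within single genes, at times a fall, as described further on. The part of brightness in these differences was not tested.

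**Figure D3:**
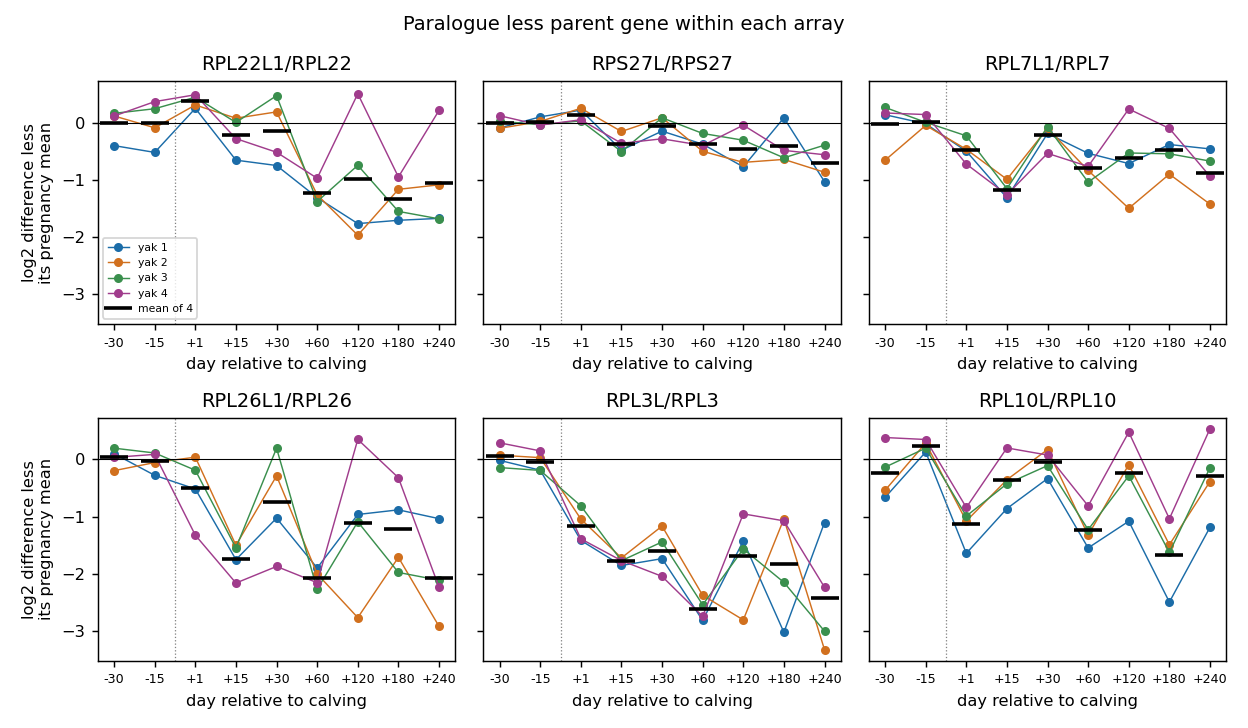
Log2 value of the paralogue less that of its parent gene on the same array, set to 0 at the mean of the 8 pregnancy arrays, for 6 pairs by day relative to calving; points are yaks 1 to 4 and bars the means of 4. The differences of all 6 pairs are below 0 at all 6 lactation day means, and that for RPL22L1 is lower from day +60 on than at days +15 and +30. On the quantile scale the difference for RPL10L turns in sign. With the mean of all probes of a gene in place of the chosen probe, RPL22L1 fell less than RPL22.

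Day by day against day -30, the calls came at days +15, +60 and +240. At day -15 no member was called, where 0.00497% of all genes (1 gene) were, 208 having an unadjusted p under 0.05. At day +1 the 1 member called was RPL3L (-1.07, adjusted p = 0.0231), against 6.24% of all genes. At day +15, 53 members rose (10.2% of all genes did) and 1, RPL3L, fell (7.71% of all genes did). RPL7 (1.48), RPS12 (1.41), RPS24 (1.35) and RPL5 (1.29) were among those that rose most, with adjusted p from 0.00608 to 0.0122. At day +30 RPL3L alone was called (-1.57), against 6.37% of all genes, and the median change of the family was 0.04.

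At day +60, 63 members rose (12.6% of all genes did) and RPL3L and RPL26L1 (-0.93) fell (16.7% of all genes did). RPLP1 (1.38), RPS12 (1.28), RPLP0 (1.25) and RPS24 (1.25) were among those that rose most. At day +120 RPL3L (-1.42) was the 1 member called, against 3.76% of all genes. At day +180 RPLP1 rose (1.06, adjusted p = 0.0481; 6.67% of all genes rose), while RPL3L (-1.40, with 2 of 4 arrays well above background) and RPL22L1 (-1.11, adjusted p = 0.0212) fell (10.8% of all genes fell). At day +240, 47 members rose (6.86% of all genes did), among them RPLP1 (1.37), RPLP0 (1.33), RPS2 (1.32) and RPS12 (1.30), and RPL3L (-1.58, with 2 of 4 arrays well above background) and RPL26L1 (-0.99) fell (7.08% of all genes did). On the quantile scale the median change of the family was -0.19 at day +15, -0.18 at day +60 and -0.16 at day +240, so the direction of the rises flips there. The number called at days +15, +60 and +240 was 0, 3 and 0 without yak 3, 18, 26 and 1 without yak 2, and 3, 21 and 23 without yak 1, and without yak 4 it was 13 at day +15. At day +1 no member was called when any 1 yak was left out, and without yak 3 none was called at days +30 and +120. With the days and animals of the scanner files the numbers were 0, 9 and 0, with 72 at day +30.

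**Figure D4:**
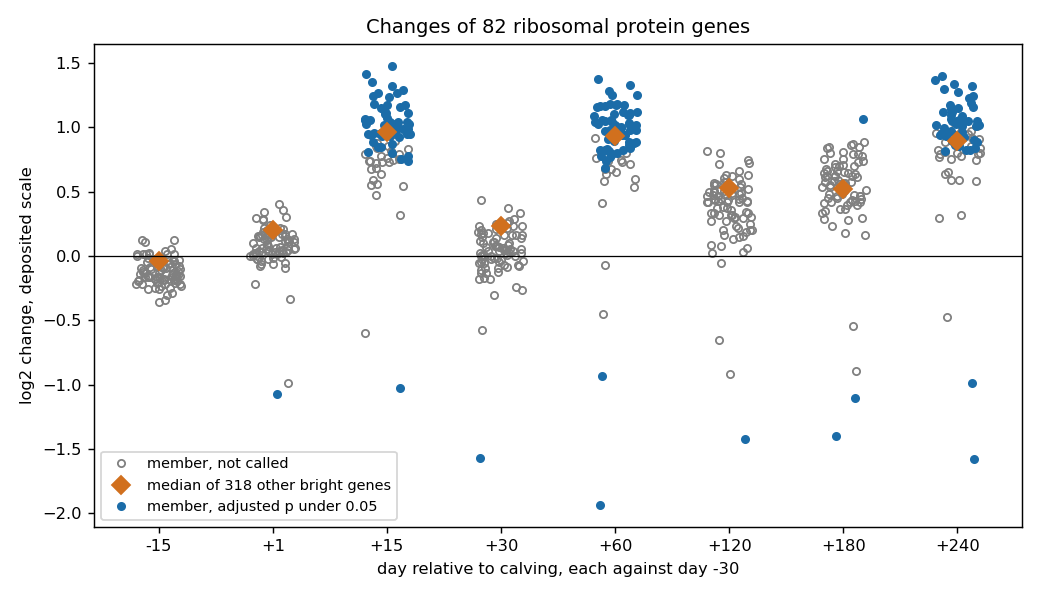
Log2 change of each of the 82 genes at 8 days against day -30 on the deposited scale; filled points have an adjusted p under 0.05 (limma), and the diamond is the median of 318 other genes with a mean of 4 or more. The family follows the diamonds at each day, high at days +15, +60 and +240 and near 0 at days +1 and +30; on the quantile scale the medians of the family at days +15, +60 and +240 are below 0.

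Days +120 and +180 rested on yak 4. On its array of day +120, 73 of the 76 genes outside the paralogues lay below all of their 8 pregnancy values and none above, and on its array of day +180 6 lay below and 2 above. On the array of yak 2 at day +120, all 76 lay above. The same 2 arrays of yak 4 stood apart in CSN2, the gene of beta-casein, at -0.98 and -1.01 where the other 34 arrays ran from 4.03 to 8.74. When they were left out, an alternative chosen after seeing the data, 34 members rose and 3 fell at day +120, where 6.8% of all genes rose and 6.45% fell. At day +180, 53 then rose and 3 fell, where 12.5% of all genes rose and 15.2% fell. Without yak 4 altogether 8 members were called at day +120 and 29 at day +180, and without each of the other yaks 1 was called at day +180. Yaks 2 and 3 at day +30 were likewise low, with 30 and 73 of 76 genes below all pregnancy values, where yak 4 had all 76 above.

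Between neighbouring days, few genes of any kind were called. The share of all genes called was 1.79% from day -15 to +1, 0.318% from +1 to +15, 0.0149% from +15 to +30, 0.88% from +30 to +60, 0.895% from +60 to +120, 0.338% from +120 to +180 and 0.801% from +180 to +240. The 1 member called in these 7 steps was RPL10L, higher at day +240 than at day +180 by 1.84 (SE 0.41, adjusted p = 0.0243, limma), a call that was lost on the quantile scale and without yak 2, 3 or 4. Without yak 4, 68 members were called from day +30 to +60, and with the arrays of the compared days alone 69 were called from day +1 to +15. The median change of the family was 0.22, 0.84, -0.87, 0.87, -0.53, 0.17 and 0.38 over the steps in order, and that of the other bright genes was 0.25, 0.77, -0.73, 0.69, -0.43, 0.05 and 0.36. In the F test over all 9 days 78 of the 82 members passed, against 42.3% of all genes, and RPL36, RPS27L, RPL7L1 and RPL28 did not (adjusted p 0.0511 to 0.0931). The number that passed was 1 without yak 3, 11 without yak 2 and 24 without yak 1.

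The size of the change on the deposited scale went with the brightness of the probe. The 82 genes had 288 probes in the table, of which those of the 76 genes outside the paralogues are described here. The 140 probes with a mean of 5 or more changed by a median of 0.74 and the 99 probes between 4 and 5 by 0.60, and all of these had a positive change. The 13 probes between 0 and 3 had a median change of -0.18 and the 16 probes below 0 one of -0.23. Probes of other genes changed by medians of 0.93, 0.63, 0.14 and -0.18 in the same 4 ranges. 9 genes had both a probe at 5 or more and one between 0 and 3, and in all 9 the brighter ones had the more positive change. In RPL39 the bright probe changed by 0.58 and the dim one by -0.80. In RPL35 the bright probe changed by 0.78 and the 2 dim probes by -0.20 and -0.24. Whether dim probes of a gene bind its transcript as the bright ones do was not tested.

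**Figure D5:**
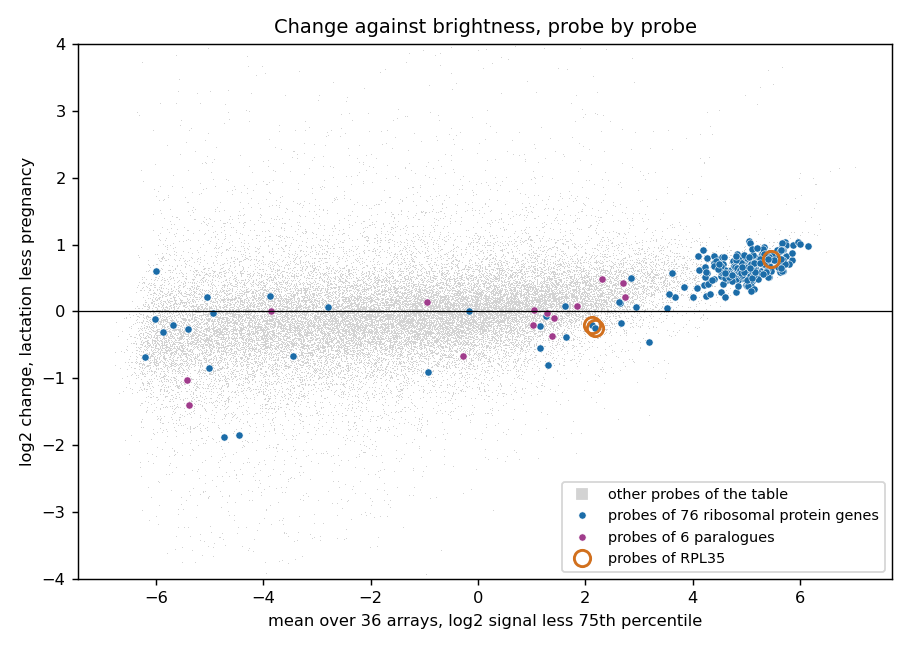
Log2 change from pregnancy to lactation against the mean over 36 arrays, both on the deposited scale, for each probe of the 76 genes, of the 6 paralogues and of other genes; other probes with changes beyond -4 or 4 are not drawn. Bright probes lie above 0 in the family and outside it, and the 3 probes of RPL35 (ringed) fall on both sides of 0. After quantile normalization most members lie below 0.

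Genes that work with the ribosome were compared by lists, whose counts stand beside the 18.4% of all genes that rose and 19.9% that fell on the deposited scale, and the 16.8% and 18.2% on the quantile scale. Of the 8 elongation genes, 7 rose in lactation on the deposited scale, with a median of 0.71. They included EEF1A1 (1.08), which brings tRNAs to the ribosome, TPT1 (0.89), which acts on that factor, and EEF2 (0.86), which moves the ribosome along. None of the 8 was called on the quantile scale. All 5 further ribosomal protein genes outside the naming rule rose, among them FAU (0.98), a fusion of a ribosomal protein with a ubiquitin-like one, and the gene that the array names RPS4Y1 (0.55). 1 of these 5 was called lower on the quantile scale.

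Genes that build ribosomes were a further group. Of 27 biogenesis genes, 1 rose and 2 fell on the deposited scale, with a median of -0.17. NPM1, the nucleolar protein nucleophosmin, rose by 0.36, and NOB1 (-0.35), the nuclease that matures 18S RNA, and NIP7 (-0.34), a factor of 60S assembly, fell. On the quantile scale none rose and 13 fell. Of 14 genes of RNA polymerase I and its factors, 1 rose and 5 fell: POLR1A (-0.76), its largest subunit, and CD3EAP (-0.70) fell most, and POLR1D rose by 0.63. 5 fell on the quantile scale too. Of 12 genes of the mTOR pathway, RHEB (0.61), its activator, rose, and DEPTOR (-0.62), an inhibitor, and MLST8 (-0.55), a subunit of both complexes, fell. RHEB was not called on the quantile scale. The mean of the biogenesis list on an array ran from 0.28 to 1.28 in lactation and from 0.76 to 1.24 in pregnancy, so its probes were dim beside those of the family.

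Markers of the cells in the gland were counted against the same shares of all genes. Of 6 milk protein genes 4 rose on the deposited scale, and the mean of the 6 on an array ran from 3.54 to 5.08 in pregnancy and from -0.08 to 8.50 in lactation. Of 6 luminal markers 2 rose (2.69 to 3.49 in pregnancy, 2.75 to 4.62 in lactation). Of 8 myoepithelial markers 4 rose and 1 fell (2.25 to 2.86, and 2.25 to 3.89). Of 6 endothelial markers 3 rose (-0.12 to 0.68, and 0.43 to 1.72), and of 7 stromal markers none was called (3.15 to 3.62, and 1.89 to 4.45). Of 5 adipocyte markers 1 rose (-1.12 to 1.37, and -2.17 to 3.07), of 5 macrophage markers 1 rose (-1.49 to -0.30, and -1.53 to 1.499), and of 8 lymphocyte markers 2 rose and 3 fell (-0.76 to -0.42, and -1.44 to 0.79). All 6 genes of cell division were called lower (-1.95 to -0.95, and -5.66 to -1.72). Of these, 5 were well above background on no more than 23 to 35 of 36 arrays, though on all 8 of pregnancy, so that the size of their fall is not given. Among the cell markers, ADIPOQ, CD79B, MS4A1 and ITGAM were well above background on 21 to 35 of 36 arrays. The part of these cells in the family's values was not tested.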

How the data were processed

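Total RNA of 36 biopsies was amplified, labelled with Cy3 and hybridised to a cattle array, per the labels' protocols. The scanner files hold intensity values made with Feature Extraction 10.7.3.1, per the file headers. The deposited table holds log2 values for 34997 of 43653 probes, made by the authors in GeneSpring 12, per the design text. Set against the scanner files, each column is the log2 processed signal of 1 file less its 75th percentile (SD of the difference at most 0.0064, and at least 0.386 for the next file). How the authors chose the probes is not given in the sources used here.

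From that table, 1 probe per gene name was kept, and limma 3.58.1 (R 4.3.3) was fitted to 20110 genes with day as a factor and animal as a random block (duplicateCorrelation, 0.0531). p-values were adjusted by Benjamini-Hochberg within each of 16 contrasts. Same-numbered arrays come from the same animal, per the labels of the table's columns. The scanner files give another animal for each of the 36 columns. Their mean correlation of deviations was 0.156, against -0.0523 between animals, and each animal also kept 1 position on the slides. On simulated data for the lactation contrast over 20110 genes, 74 of 100 genes changed by 1 and 96 of 100 changed by 2 on the log2 scale were recovered, with 6 false calls. The simulated noise was independent between genes and arrays, with no effect of animal or array brightness. These figures therefore need not hold for genes that move together. Alternatives were other models and scalings, normexp (offset 50) with quantile normalization of the scanner intensity values, mean of probes, brightness covariate, the scanner files' days and leaving out each animal. Probe names are those of the array design, and 78 of the 82 genes match a symbol in RefSeq's yak annotation. The number of arrays limits the precision.

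The genes and lists were chosen with earlier results of these data known. Named genes are those with a distinct role, the 4 with the smallest and the 4 with the largest F test p, up to 5 called members with the largest rise and fall per comparison, and in other lists the 3 called genes with the largest change. Some genes that this rule names are not reported here. In groups of over 5 arrays, values are given as lowest, median and highest.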

Additional observations from a re-analysis of the deposited data

Results flagged for a closer look

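At day +15 yak 4 stood apart from the other 3 yaks in 3 of the 81 groups of 4 arrays examined (the family's median and 8 genes at 9 days, by Dixon's criterion at 95%, which chance passes in about 1 group of 20). The median of the 82 genes was 6.28 on that array and 5.53 to 5.63 on the others. RPLP0 was 6.90, against 5.94 to 5.95, and RPLP1 was 6.21, against 5.32 to 5.41. That array had the lowest 75th percentile of all 36, 1029 intensity units, where the other 3 of the day had 1779 to 2114.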

How the results depend on the processing

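The number of genes called in each of the 17 tests, and the median change of the family, were computed under 18 alternatives. The counts and medians below are those that moved, a count by over 1.5 times, or turned in sign, and the cause was not tested unless the alternative itself uses fewer arrays. With quantile normalization, the number called was 22 over the course, 36 in lactation, 6 at day +1, 26 at day +15, 18 at day +30, 27 at day +60, 15 at day +120, 14 at day +180, 11 at day +240, 1 from day -15 to +1, 1 from day +1 to +15 and 0 from day +180 to +240, and the median change was -0.163 in lactation, -0.186 at day +15, -0.177 at day +60 and -0.164 at day +240. In the lactation contrast 70 of the 82 genes turned in sign, and among the named ones these were RPL10 (-0.60), RPL11 (-0.07), RPL22 (-0.20), RPL26 (-0.25), RPL28 (-0.42), RPL3 (-0.28), RPL36 (-0.33), RPL37 (-0.17), RPL7 (-0.11), RPL7L1 (-0.19), RPLP0 (-0.12), RPLP2 (-0.06), RPS2 (-0.66), RPS24 (-0.10), RPS27A (-0.09), RPS3 (-0.04), RPS6 (-0.12) and RPSA (-0.14). With normexp and quantile normalization of the scanner signals, the number called was 29 over the course, 38 in lactation, 8 at day +1, 20 at day +15, 19 at day +30, 27 at day +60, 18 at day +120, 16 at day +180, 11 at day +240, 2 from day -15 to +1 and 0 from day +180 to +240, and the median change was -0.168 in lactation, -0.163 at day +15, -0.189 at day +60 and -0.130 at day +240. In the lactation contrast 67 of the 82 genes turned in sign, and among the named ones these were RPL10 (-0.58), RPL11 (-0.06), RPL22 (-0.15), RPL26 (-0.32), RPL28 (-0.42), RPL3 (-0.31), RPL36 (-0.39), RPL37 (-0.32), RPL7 (-0.03), RPL7L1 (-0.23), RPLP0 (-0.10), RPLP2 (-0.05), RPS2 (-0.70), RPS24 (-0.09), RPS27A (-0.07), RPS3 (-0.06), RPS6 (-0.18) and RPSA (-0.14). With array brightness as a covariate, the number called was 34 over the course, 9 in lactation, 6 at day +1, 1 at day +15, 51 at day +30, 3 at day +60, 16 at day +120, 7 at day +180, 1 at day +240, 1 from day -15 to +1, 1 from day +30 to +60, 1 from day +60 to +120 and 1 from day +120 to +180, and the median change was -0.138 in lactation, -0.152 at day +15, -0.226 at day +60 and -0.079 at day +240. In the lactation contrast 73 of the 82 genes turned in sign, and among the named ones these were RPL10 (-0.27), RPL10L (-0.97), RPL11 (-0.14), RPL22 (-0.24), RPL26 (-0.02), RPL28 (-0.47), RPL3 (-0.10), RPL36 (-0.35), RPL5 (-0.07), RPL7L1 (-0.18), RPLP0 (-0.19), RPLP1 (-0.05), RPLP2 (-0.16), RPS12 (-0.03), RPS24 (-0.05), RPS27A (-0.25), RPS27L (-0.23), RPS3 (-0.13), RPS6 (-0.14) and RPSA (-0.23). With the days and animals of the scanner files, the number called was 16 over the course, 0 at day +1, 0 at day +15, 72 at day +30, 9 at day +60 and 0 at day +240, and the median change was 0.478 at day +240. With total-signal scaling, the number called was 39 over the course, 40 in lactation, 2 at day +1, 18 at day +15, 17 at day +60, 2 at day +120, 5 at day +180, 17 at day +240, 1 from day -15 to +1, 1 from day +1 to +15, 5 from day +30 to +60 and 1 from day +120 to +180, and the median change was 0.222 in lactation, 0.296 at day +15, 0.301 at day +60 and 0.343 at day +240. In the lactation contrast 8 of the 82 genes turned in sign, and among the named ones these were RPL10L (-0.36), RPL22 (-0.03), RPL28 (-0.12), RPL36 (-0.02), RPL7L1 (-0.27) and RPS27L (-0.06). With centring on the family's median, the number called was 6 over the course, 16 in lactation, 0 at day +1, 8 at day +15, 8 at day +60, 8 at day +240, 2 from day +30 to +60 and 0 from day +180 to +240. With a fit on nothing but the 8 arrays compared, the number called was 2 at day +1, 2 from day -15 to +1, 69 from day +1 to +15 and 0 from day +180 to +240. With the animal as a fixed replicate block, the number called was 2 at day +120 and 1 from day +1 to +15, and the paired fit moved no other count by over 1.5 times. With an ordinary linear model, the number called was 2 at day +120. Without the 2 arrays of yak 4 low in casein, the number called was 37 at day +120, 56 at day +180, 17 from day +1 to +15, 16 from day +30 to +60 and 0 from day +180 to +240. With the mean of all probes of a gene, the number called was 31 at day +240. In the lactation contrast RPL22 (-0.23) and RPS26 (-0.21) turned in sign. With centring on the array median, the number called was 0 from day +180 to +240. Leaving out each yak in turn gave 1 to 80 over the course, 0 at day +1 each time, 0 to 18 at day +15, 0 to 1 at day +30, 3 to 60 at day +60, 0 to 8 at day +120, 1 to 29 at day +180, 0 to 48 at day +240, 0 to 68 from day +30 to +60 and 0 to 1 from day +180 to +240. Of the changes of 27 named members in the lactation contrast, 3 (RPL22, RPL36 and RPS27L) lost their call without yak 2 and without yak 3, and 2 of these without yak 1. Slide cannot be separated from day in the table's record, and 4 animals limit every test.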
